A study of Mus musculus with 6 samples.

Results

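The transcription factors that set brown fat identity were followed in C3H-10T1/2 cells, a mouse mesenchymal cell line, that had been driven towards brown fat cells with or without an inhibitor of the histone demethylase LSD1. The members were 10 named genes, Prdm16, Mecom, Ebf1, Ebf2, Ebf3, Zic1, Lhx8, Tbx15, Zfp516 and Irf4, out of 22942 genes in the deposited tables. For each gene the RefSeq transcript with the highest mean over the 6 libraries was used. Polyadenylated RNA was sequenced from 3 libraries of cells given the LSD1 inhibitor 611 (also named Cpd A) at 4 uM and from 3 libraries of cells given DMSO, the solvent. All 6 came from day 6 of differentiation. Both groups received the same induction medium for 72 h, with 1 uM rosiglitazone (a ligand of the fat cell receptor PPARγ), 1 nM T3, 20 nM insulin, 1 uM dexamethasone, 125 uM indomethacin, 0.5 mM isobutylmethylxanthine (a phosphodiesterase inhibitor) and 10% serum, and then serum, insulin, T3 and rosiglitazone alone. The labels give the start of treatment both as seeding and as 12 h after seeding, and place induction 48 h after treatment began. The cells are 1 line treated with 1 compound at 1 dose, and per the design text each group is a biological triplicate, so p-values measure the spread between these samples of 1 line.

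Brown fat cells burn fuel for heat. PRDM16 and its close relative PRDM3, the product of Mecom, are zinc finger proteins that hold cells in the brown fate: they bind co-repressors of the CtBP family to shut off white fat and muscle genes, and join C/EBPβ, PPARγ and the coactivator PGC-1α on brown genes. EBF2 marks brown precursors and helps PPARγ reach brown fat enhancers, and EBF1 and EBF3 share its DNA binding domain. ZIC1 and LHX8 mark the classical brown depots of the mouse, TBX15 acts in the differentiation of brown and some white fat cells, and ZFP516 and IRF4 are cold-responsive activators of the Ucp1 gene. LSD1, encoded by Kdm1a, has been described as a partner of PRDM16 in fat cells.

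The promoters of Prdm16 and Mecom are shown because these related genes moved in opposite directions (values further on). Each run holds 250 bases before the annotated start and 50 after it, 5′ to 3′ on the gene's strand, from RefSeq on build GRCm38.p6, a later build than the mm9 of the deposited files. The Prdm16 window is chr4:154636824-154637123 on the minus strand. The windows of Mecom are chr3:30509710-30510009, its upstream start, and chr3:30013155-30013454, its downstream start, both on the minus strand. Capitals in the Prdm16 and upstream Mecom windows mark the longest stretch they share, and capitals in the downstream Mecom window mark a match to the EBF palindrome, which is TCCC and GGGA with any 2 bases between them.
Prdm16: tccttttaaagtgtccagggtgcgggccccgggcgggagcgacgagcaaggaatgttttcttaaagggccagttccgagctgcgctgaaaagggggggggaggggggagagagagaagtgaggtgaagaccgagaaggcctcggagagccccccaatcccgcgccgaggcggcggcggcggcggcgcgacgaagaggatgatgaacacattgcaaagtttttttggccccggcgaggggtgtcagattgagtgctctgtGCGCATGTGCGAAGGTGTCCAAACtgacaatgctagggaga
Mecom, upstream start: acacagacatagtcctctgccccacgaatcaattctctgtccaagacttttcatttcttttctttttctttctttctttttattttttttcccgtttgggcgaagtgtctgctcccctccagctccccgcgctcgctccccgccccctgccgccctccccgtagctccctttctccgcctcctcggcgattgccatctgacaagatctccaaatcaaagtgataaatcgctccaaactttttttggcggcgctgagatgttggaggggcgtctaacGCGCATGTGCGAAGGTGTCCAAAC
Mecom, downstream start: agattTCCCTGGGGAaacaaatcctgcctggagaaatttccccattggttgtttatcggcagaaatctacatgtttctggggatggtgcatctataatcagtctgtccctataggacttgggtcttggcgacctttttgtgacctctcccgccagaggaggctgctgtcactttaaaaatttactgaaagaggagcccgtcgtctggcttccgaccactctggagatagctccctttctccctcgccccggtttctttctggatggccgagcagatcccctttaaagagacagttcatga
The shared stretch, GCGCATGTGCGAAGGTGTCCAAAC, is 24 bases long and lies just after the start in both genes, from base 10 of the Prdm16 transcript and base 27 of the upstream Mecom transcript. In the upstream Mecom window the stretch runs to the last base, so 24 bases is a lower bound set by the window edge. Of 32851 promoter windows searched, 2 held it, those of Prdm16 and Mecom. The longest stretch that Prdm16 shared with the downstream Mecom window was 7 bases. The Mecom transcript used here starts 48 bases from the downstream start in the GENCODE M21 annotation. GC content was 61.0% in the Prdm16 window, 52.0% in the upstream Mecom window and 49.7% in the downstream one.

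Motifs were read on both strands, and none of those searched contains another. The EBF palindrome was in 1 of the 9 member windows used here, from 7 of the 10 genes, against 0.90% of all windows. Ebf2, Tbx15 and Zfp516 had no window among these 9. Windows on the chromosome of Zfp516 were left out for the members but kept in the share of all windows. That 1 match, TCCCTGGGGA, begins 245 bases before the downstream Mecom start. The GC box GGGCGG was in 5 of the 9 member windows against 35.66% of all windows, CCAAT in 3 against 37.41% and TATAAA in 1 against 13.62%. A match is a description of the letters in these windows only.

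Library totals recovered from the values lay between 40771500 and 41105500 reads with 611 and between 38777500 and 39831000 with DMSO. Genes seen at all numbered 15919 to 16021 with 611 and 15732 to 15860 with DMSO. Levels are RPKM (reads in proportion to transcript length and sequencing depth), so they can be compared between genes. The test was limma on log2(RPKM + 1), adjusted by the Benjamini-Hochberg method over 13829 genes with at least 0.1 RPKM in at least 3 libraries, and a gene was called at an adjusted p below 0.05. Median-of-ratios scaling, which sets the typical gene to no change, shifted the middle of the log2 fold changes of all genes down by 0.11. Kdm1a itself was at 11.3 ± 0.331 RPKM with 611 and 9.09 ± 0.331 with DMSO (SD, n = 3 each), and because the inhibitor acts on the protein this is no check of the labels.

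Levels of the members ran from 36.5 ± 1.44 RPKM for Ebf1 with 611 (SD, n = 3) down to single reads. With 611 the order from high to low was Ebf1, Mecom, Zfp516, Ebf3, Tbx15, Ebf2, Prdm16, Irf4, Zic1 and Lhx8. With DMSO it was the same down to Irf4, with Lhx8 before Zic1. Neighbours did not overlap with 611 except Zic1 and Lhx8. Irf4, Zic1 and Lhx8 had only 0 to 6 reads a library with 611, so their order and separation there rest on few reads. With DMSO the libraries of Zfp516 and Ebf3 overlapped, as did those of Irf4 and Lhx8 and those of Lhx8 and Zic1. Ebf1 stood above 90.7% of the genes seen in any library with 611 and above 86.7% with DMSO. Prdm16 stood above 22.1% with 611 and above 30.0% with DMSO. Prdm16 was therefore among the low transcripts in both groups.

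**Figure D1:**
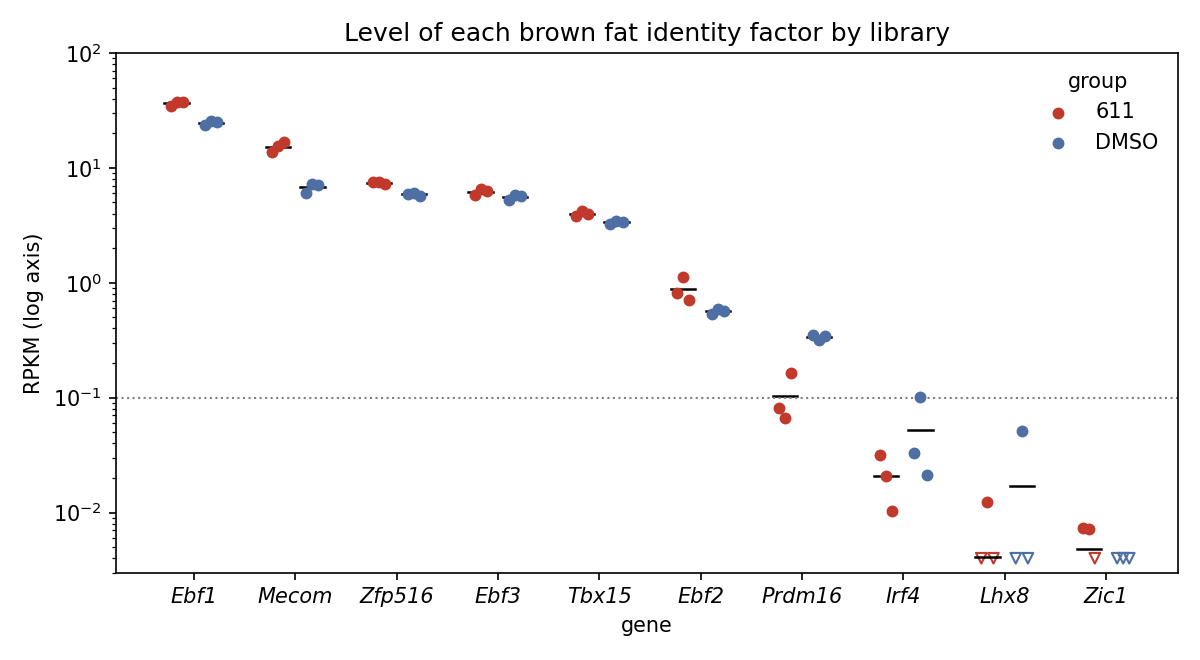
RPKM on a log axis for each member (x axis, ordered by the DMSO mean) in the 3 libraries with 611 (red, left) and the 3 with DMSO (blue, right). Bars are group means, open triangles at the foot are libraries listed at 0, and the dotted line is the 0.1 RPKM used in the filter. Ebf1 and Mecom are highest, Prdm16 is the only tested member whose 611 libraries lie below its DMSO libraries, and Lhx8 and Zic1 have values of single reads.

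Of the 10 members, 7 passed the filter on low values. Of these 5 rose with 611 (Mecom, Ebf1, Ebf2, Zfp516 and Tbx15), 1 fell (Prdm16) and 1, Ebf3, was not called. Over all genes tested 41.6% were called higher and 17.7% lower, so most genes moved in these libraries and the counts of members are read against that. The median log2 fold change of the 7 was 0.26, beside 0.10 for all genes tested. After median-of-ratios scaling, 3 rose (Mecom, Ebf1 and Zfp516) and Prdm16 fell, where 28.5% of all genes were called higher and 28.6% lower. With no filter 4 members rose and 1 fell, against 22.4% and 9.25% of all genes. In limma-voom on recovered reads 6 rose and 1 fell, against 44.8% and 17% of genes. In 6 of the 7 every 611 library was above every DMSO library, which held for 45.8% of genes tested, and in Prdm16 every 611 library was below, which held for 20.4%. In the same libraries 10 of 10 general adipocyte markers fell, with summed levels between 13530 and 14970 RPKM with 611 and between 25911 and 27307 with DMSO. Most of that sum was Fabp4, the fatty acid binding protein of fat cells, at 10946 ± 573 RPKM with 611 and 21052 ± 790 with DMSO. The markers fell by different amounts, from 1.17-fold for Cebpa, 1.39-fold for Pparg and 1.40-fold for Adipoq to 2.22-fold for Cd36. In bulk RNA, fewer fat cells and less RNA per fat cell cannot be told apart, and the part that fat cell content had in the members' changes was not tested.

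**Figure D2:**
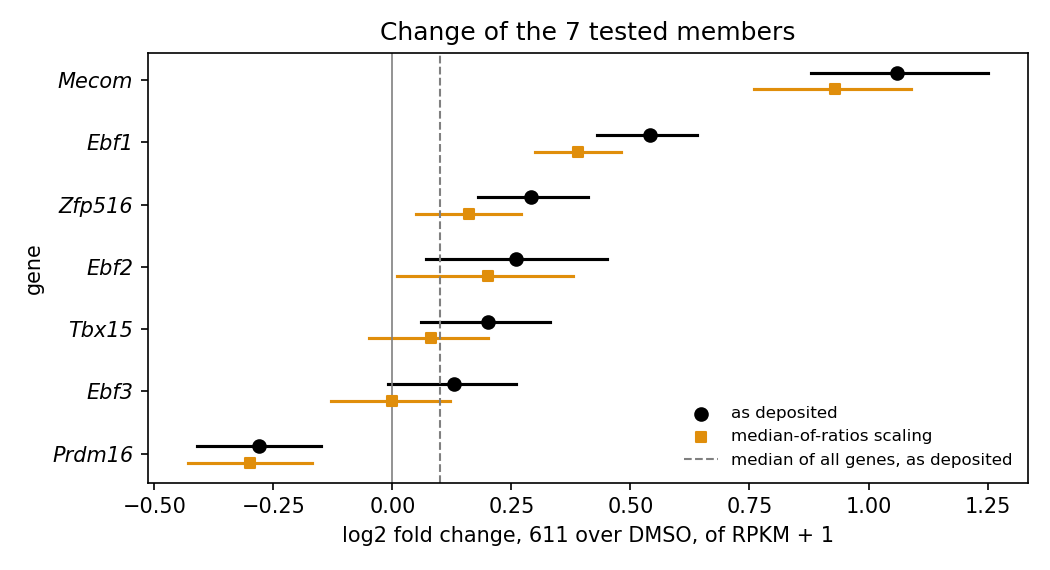
Log2 fold change of 611 over DMSO on the log2(RPKM + 1) scale for the 7 tested members, with 95% confidence intervals from limma. Black circles are the values as deposited and orange squares those after median-of-ratios scaling. Mecom is at 1.06 and 0.93, and Prdm16 at -0.28 and -0.30, while Ebf3 moves onto 0 after scaling.

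Prdm16 was 3.24-fold lower with 611. Its levels were 0.0813, 0.0662 and 0.165 RPKM in 611 replicates 1, 2 and 3, against 0.354, 0.316 and 0.342 RPKM in DMSO replicates 1, 2 and 3. The groups did not overlap, and 611 replicate 3 was the highest of its group. The values stand for an estimated 28, 23 and 57 reads with 611 and for 116, 106 and 115 reads with DMSO. Summed over libraries that is 108 reads against 337, a ratio of 0.309 with a 95% interval of 0.246 to 0.385 that covers counting error only. The log2 fold change was -0.28 ± 0.058 (SE; limma Benjamini-Hochberg adjusted p = 0.00298). The added 1 understates so low a gene: the log2 ratio of the means was -1.69. Limma-voom on the recovered reads gave -1.78 ± 0.27 (SE; Benjamini-Hochberg adjusted p = 9.8e-05). A ratio of means as low as that of Prdm16 or lower was seen in 0.427% of genes tested. Prdm16 passed the filter through its 3 DMSO libraries and 1 library with 611, so its passing already favoured a higher DMSO level. That selection bears on the share of 0.427% as well. The share is over tested genes of all levels, not of like level, so it is a description only. Without any filter the call of Prdm16 held (limma Benjamini-Hochberg adjusted p = 0.00674). The other listed Prdm16 transcript had nearly the same values, at 0.103 ± 0.0539 RPKM with 611 and 0.331 ± 0.0189 with DMSO, and gives no separate measurement.

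Mecom, the gene of PRDM3 and EVI1, moved the other way and rose 2.25-fold, the largest rise among the 7 tested members. Its levels were 13.8, 15.4 and 16.7 RPKM in 611 replicates 1, 2 and 3, against 6.10, 7.20 and 7.11 RPKM in DMSO replicates 1, 2 and 3. Each 611 library was above each DMSO library. The log2 fold change was 1.06 ± 0.080 (SE; limma Benjamini-Hochberg adjusted p = 7.7e-06), and 0.93 after median-of-ratios scaling. A log2 fold change at least as large was found for 2.92% of genes tested. The locus makes a long protein with the PR domain from its upstream start and a shorter EVI1 form from its downstream start. The transcript used for the levels above begins near the downstream start, that of the EVI1 form. The long form with the PR domain was not measured apart from it. A second listed Mecom transcript was at 2.75 ± 0.317 RPKM with 611 and 0.965 ± 0.177 RPKM with DMSO, 2.85-fold higher (log2 fold change 0.93 ± 0.088 SE, limma Benjamini-Hochberg adjusted p = 2.2e-05). Its level as a share of the first ran from 17.3% to 18.4% in the 611 libraries and from 13.0% to 16.1% in the DMSO libraries. Both listed Mecom transcripts therefore rose. The start of the second was not placed in the annotation used here, so neither rise is read as one of the long form with the PR domain.

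The level of the first Mecom transcript, from the downstream start, exceeded that of Prdm16 in every library, and by more with 611. The ratio of Mecom to Prdm16 was 170, 233 and 101 in 611 replicates 1, 2 and 3, against 17.2, 22.8 and 20.8 in DMSO replicates 1, 2 and 3. This ratio is within a library, so scaling does not change it. No stretch of 50 bases was shared by annotated transcripts of Prdm16 and Mecom.

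**Figure D3:**
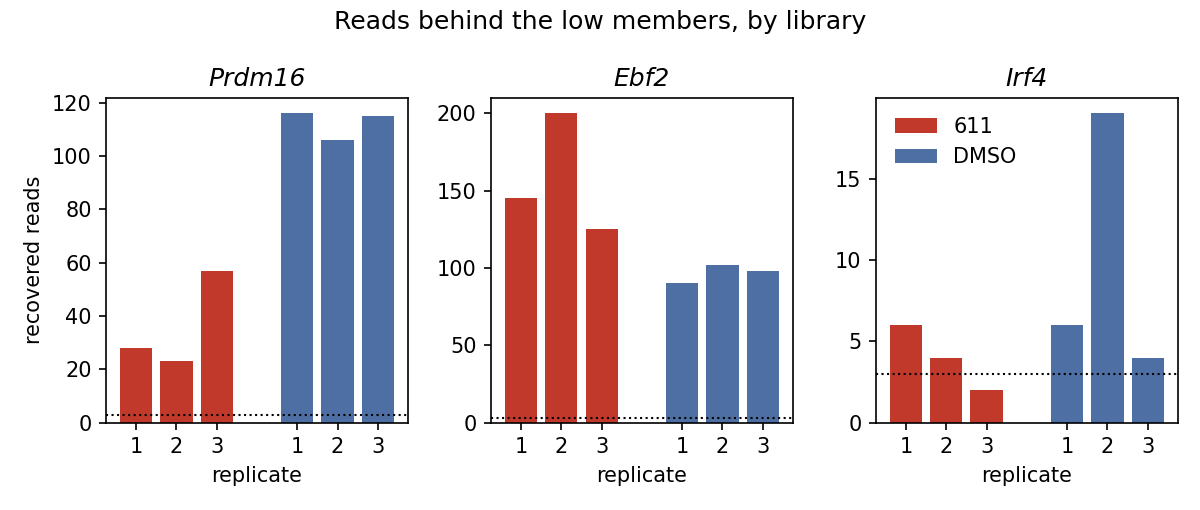
Reads recovered per library (y axis) for Prdm16, Ebf2 and Irf4 in the libraries with 611 (red, left) and DMSO (blue, right), with the replicate number on the x axis. The dotted line marks 3 reads. Prdm16 has 23 to 57 reads with 611 and 106 to 116 with DMSO, Ebf2 has more reads with 611 in each library, and the 19 reads of Irf4 in DMSO replicate 2 stand apart.

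The EBF genes differed in how much they moved. Ebf1, which also acts in general fat cell formation, was at 34.8, 37.3 and 37.2 RPKM in 611 replicates 1, 2 and 3, against 23.7, 25.6 and 25.1 RPKM in DMSO replicates 1, 2 and 3. It rose 1.47-fold with no overlap between groups (log2 fold change 0.54 ± 0.045 SE, limma Benjamini-Hochberg adjusted p = 1.5e-05), and its log2 fold change after scaling was 0.39. Ebf1 was by far the most abundant EBF transcript and made up 83.0% to 84.3% of the summed EBF level with 611 and 80.0% to 80.3% with DMSO.

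Ebf2, the brown precursor factor, was at 0.818, 1.12 and 0.704 RPKM in 611 replicates 1, 2 and 3, against 0.534, 0.591 and 0.566 RPKM in DMSO replicates 1, 2 and 3. All 611 libraries were above all DMSO libraries, with 611 replicate 2 highest. The values stand for an estimated 145, 200 and 125 reads with 611 and 90, 102 and 98 reads with DMSO. It rose 1.56-fold (log2 fold change 0.26 ± 0.083 SE, limma Benjamini-Hochberg adjusted p = 0.0242). Here too the added 1 understates a low gene: the log2 ratio of the means was 0.64. The call held with 0.1 added in place of 1 (0.54, limma Benjamini-Hochberg adjusted p = 0.0247). It also held in limma-voom on recovered reads (0.63, Benjamini-Hochberg adjusted p = 0.0103). The call ended after median-of-ratios scaling (0.20, adjusted p = 0.0655) and without 611 replicate 2, where the log2 fold change fell to 0.17 (limma Benjamini-Hochberg adjusted p = 0.0607). It ended too without DMSO replicate 1, without DMSO replicate 3 and with no filter (limma Benjamini-Hochberg adjusted p = 0.0665, 0.0582 and 0.0950).

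Ebf3 was at 5.85, 6.53 and 6.23 RPKM in 611 replicates 1, 2 and 3, against 5.29, 5.82 and 5.67 RPKM in DMSO replicates 1, 2 and 3. The groups lay just apart, with the lowest 611 library next to the highest DMSO library. Its log2 fold change of 0.13, with a 95% interval of -0.01 to 0.26, was not called (limma Benjamini-Hochberg adjusted p = 0.0939). It passed with the replicate number as a block (adjusted p = 0.0394) and in limma-voom on recovered reads (adjusted p = 0.0344), and its value after scaling was -0.0025. Its share of the summed EBF level was 14.1% to 14.5% with 611 and 17.9% to 18.2% with DMSO, a shift that scaling leaves as it is. The share of Ebf2 was 1.59% to 2.49% with 611 and 1.81% to 1.84% with DMSO, which overlapped. The summed level of the 3 EBF genes was 43.6 ± 1.83 RPKM with 611 and 31.0 ± 1.33 with DMSO (SD, n = 3 each). No 50-base stretch was shared between annotated transcripts of the 3 genes. A gene on the other strand covers 6.12% of the annotated exon bases of Ebf2 and 3.85% of those of Ebf3, and the sources used here do not say whether the authors counted by strand.

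Zfp516, a zinc finger activator that joins PRDM16 on brown genes, was at 7.46, 7.56 and 7.27 RPKM in 611 replicates 1, 2 and 3, against 5.88, 6.09 and 5.69 RPKM in DMSO replicates 1, 2 and 3. It rose 1.26-fold with no overlap between groups (log2 fold change 0.29 ± 0.050 SE, limma Benjamini-Hochberg adjusted p = 9.5e-04). After scaling 0.16 was left (limma Benjamini-Hochberg adjusted p = 0.0212). Its second listed transcript, at 7.35 ± 0.130 RPKM with 611 and 5.83 ± 0.207 with DMSO, had nearly the same values as the first and gives no separate measurement.

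Tbx15, a T-box factor of mesenchymal tissues, was at 3.78, 4.21 and 3.96 RPKM in 611 replicates 1, 2 and 3, against 3.23, 3.44 and 3.38 RPKM in DMSO replicates 1, 2 and 3. The groups did not overlap. Its rise of 1.19-fold (log2 fold change 0.20 ± 0.059 SE, limma Benjamini-Hochberg adjusted p = 0.0184) was among the smaller ones. The call ended after scaling (0.08, adjusted p = 0.268), without 611 replicate 2 (adjusted p = 0.0681) and without DMSO replicate 1 (limma Benjamini-Hochberg adjusted p = 0.0627).

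**Figure D4:**
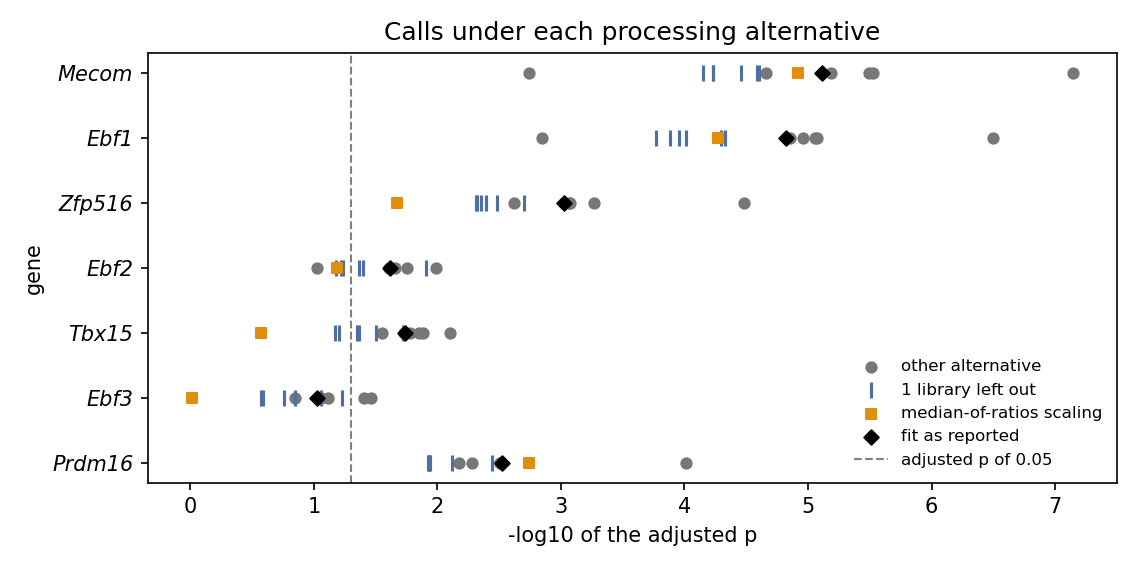
The -log10 of the limma adjusted p (x axis) for each tested member under the reported fit (black diamond), median-of-ratios scaling (orange square), each library left out (blue tick) and the other alternatives (grey). The dashed line is an adjusted p of 0.05. Mecom, Ebf1, Zfp516 and Prdm16 stay right of it in every setting in which they were tested, and Ebf2, Tbx15 and Ebf3 lie on both sides.

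The 3 members below the filter were the markers of classical brown fat, Zic1 and Lhx8, and Irf4. Irf4, an interferon regulatory factor induced by cold and cAMP, had 6, 4 and 2 reads in 611 replicates 1, 2 and 3, against 6, 19 and 4 reads in DMSO replicates 1, 2 and 3. The groups overlapped, and DMSO replicate 2 held 19 of the 29 DMSO reads. The summed ratio of 0.399 (95% counting interval 0.185 to 0.806) became 0.769 (0.304 to 1.99) without DMSO replicate 2. Lhx8 had 0, 1 and 0 reads in 611 replicates 1, 2 and 3, against 0, 4 and 0 reads in DMSO replicates 1, 2 and 3. Its ratio of 0.241 had a counting interval of 0.00489 to 2.43. Zic1 had 1, 1 and 0 reads in 611 replicates 1, 2 and 3, against 0 reads in each DMSO library, all under the floor of 3 reads, which for Zic1 is 0.0256 to 0.0258 RPKM with 611 and 0.0264 to 0.0271 RPKM with DMSO. A difference in Zic1 or Lhx8 was not detectable at this depth. When all genes were fitted with no filter, the limma Benjamini-Hochberg adjusted p was 0.475 for Irf4, 0.723 for Lhx8 and 0.203 for Zic1.

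The label of brown fat cells was checked against defining markers. Ucp1, which encodes the heat-producing uncoupling protein, was at 0 in each of the 6 libraries, and Dio2, the deiodinase of brown fat, was at 0.00843, 0.00835 and 0.00841 RPKM with 611, against 0.00885, 0.0346 and 0.0259 RPKM with DMSO. Cidea, a lipid droplet protein gene of brown fat, was at 9.42 ± 0.840 RPKM with 611 and 61.7 ± 13.3 with DMSO (SD, n = 3 each). Cox8b, a subunit of the respiratory chain, was at 3.28 ± 0.968 RPKM with 611 and 28.1 ± 1.07 with DMSO. General fat cell markers were abundant in both groups. Markers of blood, vessels, epithelium and neurons summed to between 0.0444 and 0.0735 RPKM with 611 and between 0.0346 and 0.168 RPKM with DMSO over 7 genes, with Ptprc, Cdh5 and Epcam at 0 in all libraries.

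Most of the tested genes that PRDM16 and the EBF factors are known to act on in brown fat were lower. Of the 15 in the list 12 could be tested, and 9 of them fell and 0 rose. Their log2 fold changes had a median of -0.82, beside 0.10 for all genes tested. Over all genes 17.7% were called lower and 41.6% higher. After median-of-ratios scaling 10 fell and 0 rose, where 28.6% of all genes were called lower and 28.5% higher. Kcnk3, a potassium channel gene of brown fat, was at 0.812 ± 0.0191 RPKM with 611 and 2.89 ± 0.278 with DMSO, 3.57-fold lower (limma Benjamini-Hochberg adjusted p = 3.0e-06). Cpt1b, which admits fatty acids to mitochondria, was 2.09-fold lower at 6.89 ± 0.643 RPKM with 611, against 14.4 ± 1.16 with DMSO. Adrb3, the β3-adrenergic receptor gene, and Pank1, of coenzyme A synthesis, were both 1.68-fold lower. The nuclear receptor gene Ppara was at 2.73 ± 0.309 RPKM with 611 and 2.89 ± 0.366 with DMSO (limma Benjamini-Hochberg adjusted p = 0.595), and the proton channel gene Otop1 was at 0.0724 ± 0.0198 RPKM with 611 and 0.174 ± 0.0183 with DMSO (limma Benjamini-Hochberg adjusted p = 0.0552, and 0.0361 after scaling). Ppargc1a, the gene of PGC-1α, was at 0.705 ± 0.157 RPKM with 611 and 0.527 ± 0.0999 with DMSO, with overlapping groups, and was not called (limma Benjamini-Hochberg adjusted p = 0.129). White fat selective genes, several of which PRDM16 represses with CtBP, fell as well in 6 of 7 tested. In that fit 0 were called higher and the median was -0.63, beside the shares of all genes given above. Psat1, named after its values were seen, was at 69.3 ± 6.71 RPKM with 611 and 62.9 ± 4.84 with DMSO. It was not called (limma Benjamini-Hochberg adjusted p = 0.161), but was called higher with the replicate number as a block (limma Benjamini-Hochberg adjusted p = 0.00388). Retn, the hormone resistin, was at 80.2 ± 3.09 RPKM with 611 and 231 ± 4.91 with DMSO, and Agt, angiotensinogen, at 29.7 ± 4.22 RPKM with 611 and 71.9 ± 7.13 with DMSO. Most of the tested brown and white genes of the fat cell were thus lower, together with the general adipocyte markers.

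**Figure D5:**
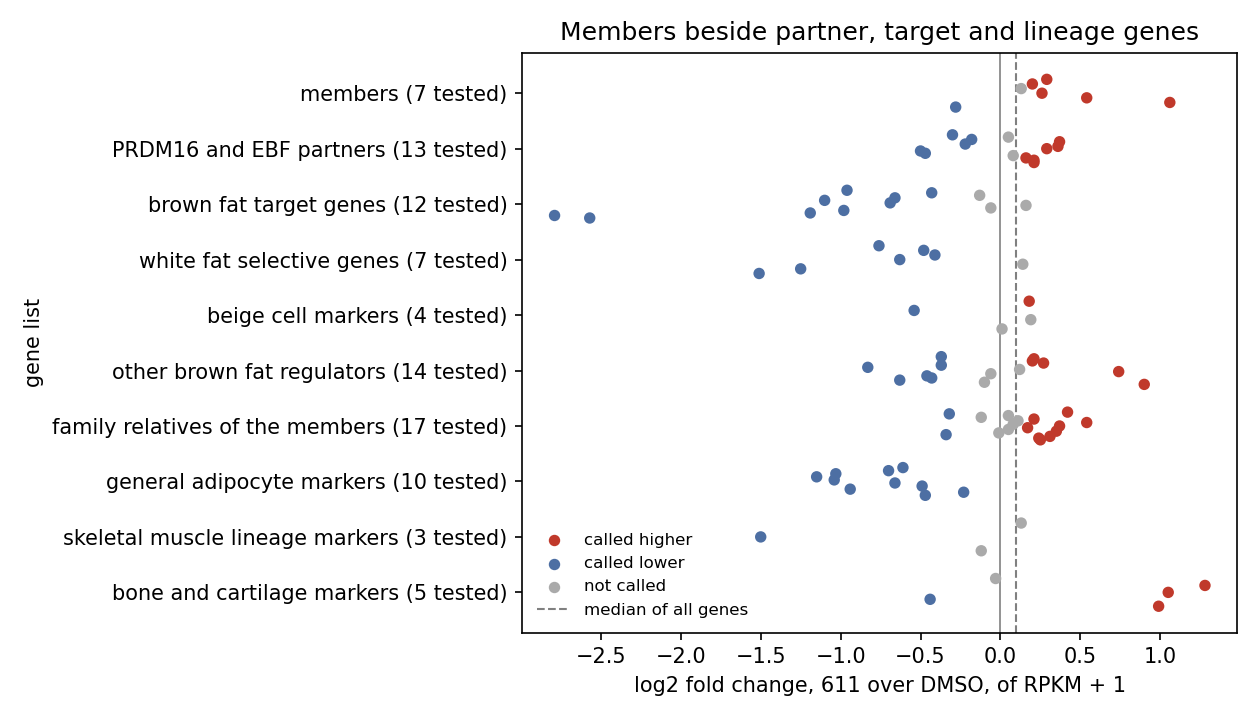
Log2 fold change of 611 over DMSO on the log2(RPKM + 1) scale for the tested genes of each list, with red for called higher, blue for called lower and grey for not called. The vertical position within a list has no meaning, and the dashed line is the median of all genes, 0.10. The members lie mostly to the right, brown targets, white fat genes and general adipocyte markers to the left, and the partners on both sides.

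Of the partners of PRDM16 and the EBF proteins all 13 were tested, and 6 rose and 5 fell, where 41.6% of all genes were called higher and 17.7% lower. Their median log2 fold change was 0.08, beside 0.10 for all genes. The rises were small: Ctbp1 1.16-fold, Ctbp2 1.18-fold and Ehmt1, a histone methyltransferase of the PRDM16 complex, 1.13-fold, and these 3 lost their calls after scaling. Smarca4, the ATPase of the BAF remodelling complex, rose 1.31-fold, Rcor1, a CoREST gene, 1.33-fold and Kdm1a 1.25-fold, and these 3 stayed called after scaling. Cebpb, which starts the brown programme with PRDM16, fell to 57.4 ± 3.19 RPKM with 611, against 79.8 ± 7.73 with DMSO (limma Benjamini-Hochberg adjusted p = 5.0e-04). Ppargc1b, a relative of the PGC-1α coactivator, was 1.45-fold lower, Nfia, a factor that opens brown fat enhancers, 1.22-fold lower, and Dpf3, a BAF subunit that EBF2 recruits, 1.32-fold lower. The call of Dpf3 ended with no filter (limma Benjamini-Hochberg adjusted p = 0.0516) and in limma-voom on recovered reads (adjusted p = 0.156). Zfp423, which restrains EBF2 in white fat cells, was 1.30-fold lower at 3.12 ± 0.290 RPKM with 611, against 4.06 ± 0.212 with DMSO. The mediator subunit gene Med1 and the corepressor gene Tle3 were not called, at 13.7 ± 0.359 and 10.8 ± 0.545 RPKM with 611 and 13.0 ± 0.699 and 10.4 ± 0.132 with DMSO.

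Of the other regulators of brown fat 14 were tested, of which 5 rose and 6 fell, with a median of -0.08, and after scaling 2 rose and 8 fell. Over all genes 41.6% were called higher and 17.7% lower, and after scaling 28.5% and 28.6%. Foxc2, a forkhead factor that promotes brown features in fat, rose 2.25-fold to 5.04 ± 0.814 RPKM with 611, against 2.24 ± 0.330 with DMSO. Rbl1, the p107 cell cycle repressor, rose 1.93-fold. Nr1h3, the liver X receptor gene, was 1.81-fold lower at 25.5 ± 0.152 RPKM with 611, against 46.1 ± 1.62 with DMSO, and Klf15 and Esrra, regulators of oxidative metabolism, were 1.70-fold and 1.36-fold lower. Twist1, an inhibitor of PGC-1α, was at 10.7 ± 1.64 RPKM with 611 and 9.77 ± 0.851 with DMSO and was not called (limma Benjamini-Hochberg adjusted p = 0.353).

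Muscle, whose lineage PRDM16 keeps closed to brown precursors, left little trace. Of 12 muscle markers, Pax7, Myod1, Myog, Myf6, Ckm and Mymk were at 0 in all libraries, and 3 could be tested. Acta1, an actin of skeletal muscle, was at 0.291, 0.186 and 0.341 RPKM in the 611 libraries, against 3.25, 2.41 and 2.22 RPKM in the DMSO libraries, 9.63-fold lower (limma Benjamini-Hochberg adjusted p = 5.5e-06). Other muscle markers, named after their values were seen, did not do the same. Tnnt3, a troponin of fast muscle, was at 0.123, 0.171 and 0.0982 RPKM with 611, against 0, 0 and 0.101 RPKM with DMSO, and was not called (limma Benjamini-Hochberg adjusted p = 0.0981, and 0.0192 in limma-voom on recovered reads). Pax3, a factor of muscle precursors, was at 0.0798, 0.173 and 0.196 RPKM with 611, against 0.0610, 0.0522 and 0.0669 RPKM with DMSO, and was below the filter. Des, the intermediate filament desmin, was at 1.58 ± 0.198 RPKM with 611 and 1.80 ± 0.156 with DMSO and was not called (limma Benjamini-Hochberg adjusted p = 0.206). Of 10 bone and cartilage markers 5 were tested, with 3 called higher and 1 lower, and the same counts after scaling. Over all genes tested 41.6% were called higher and 17.7% lower, and after scaling 28.5% and 28.6%. Runx2, Sox9 and Col2a1 rose 2.44-fold, 2.20-fold and 3.35-fold while Alpl, alkaline phosphatase, fell 2.06-fold. Of 7 beige cell markers 4 were tested, with 1 called higher and 1 lower, beside the same shares of all genes. The fatty acid transporter gene Slc27a1 was 1.48-fold lower, Sp100 rose 2.30-fold from a low level, to 0.260 ± 0.0379 RPKM with 611 against 0.113 ± 0.0634 with DMSO (not called after scaling), and Tmem26 and Cd40 were at 0 throughout.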

How the data were processed

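RNA was measured in 6 mouse cell line libraries, 3 with 611 and 3 with DMSO, grouped by their titles. Per the submitters' processing notes, the authors used TopHat2 2.0.12, TopHat and SAMtools with build mm9. They deposited 1 value for each of 28430 RefSeq transcripts per library, read here as RPKM. The sources used here do not give the program, the annotation release or the use of strand. Symbols were matched by accession in a RefSeq table of GRCm38.p6 (27789 of 28430). Low values were whole multiples of 1 read, which gave library totals from the periodicity of RPKM times GENCODE M21 transcript length. At that length 59.1% to 60.6% of transcripts with under 20 reads came out whole within 0.05 reads, so recovered reads serve only for depth, low members and an alternative. For members under 300 reads the nearest length within 20% that made all 6 libraries whole within 0.15 reads was used. A wrong length can also meet this rule in so wide a search, so the reads of these members are estimates. Whether totals are reads or pairs is unknown. Intervals and the floor of 3 reads cover counting error only.

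Limma 3.58.1 (R 4.3.3) with trend was fitted on log2(RPKM + 1) with group as the only term. No count model was the main test, since the deposited RPKM are not counts. Deviations from the group means were alike in libraries of equal replicate number (correlations across genes of 0.296, 0.298 and 0.177), so the replicate number was taken to pair them. The main fit left this pairing out, and a fit with the replicate number as a block was an alternative. Blocked values are given where they change the call of a member, and for Psat1. Calls of some other genes in the context lists changed as well. Pairwise chi-square values per gene within groups were 8.73 to 14.0 over 11637 genes, above sampling noise, and all libraries were kept. The alternatives are in the closing section. Limma-voom on recovered reads was added after the data were seen. The named genes were the 10 members, the genes of the partner, target, regulator and general fat cell lists, other lists' called genes, and the 3 genes most like Prdm16 and Ebf2. The members and the 10 lists, with 130 entries of which 129 are in the tables, were chosen with earlier results of these data known.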

Additional observations from a re-analysis of the deposited data

How the results depend on the processing

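The alternatives were median-of-ratios scaling, a pseudocount of 0.1, no filter, a filter of 1 RPKM and the replicate block. Others were each library left out, limma-voom on recovered reads, and all transcripts fitted, with the tested transcript of lowest mean read for each gene. Mecom, Ebf1, Zfp516 and Prdm16 kept their direction and their call in all 13 alternatives for the first 3 and in the 12 for Prdm16, which a filter of 1 RPKM removes. That filter leaves 0 members lower, and 2313 genes lower over all genes in place of 2451. Median-of-ratios scaling leaves 3 members higher in place of 5, 12 genes of the context lists higher in place of 24, and 3962 genes lower over all genes in place of 2451, with 3941 higher in place of 5758. Leaving out 1 library gave 3 to 5 members higher, with 3 without 611 replicate 2 and 3 without DMSO replicate 1, where Ebf2 and Tbx15 are lost. In those fits 5171 to 5533 of the 13829 genes tested were higher, with 5277 without 611 replicate 2 and 5171 without DMSO replicate 1. Ebf3 changed sign after scaling, to -0.0025 (limma Benjamini-Hochberg adjusted p = 0.973). With the replicate block 6 members were higher, Ebf3 being the added call (0.13, limma Benjamini-Hochberg adjusted p = 0.0394), 27 genes of the context lists were higher and 41 lower, and no other member changed its call. That block gave 6169 genes higher and 2700 lower over all genes. The cause of these shifts was not tested. Over the alternatives the log2 fold change ran from 0.93 to 1.19 for Mecom, 0.39 to 0.57 for Ebf1, 0.16 to 0.35 for Zfp516 and -1.78 to -0.25 for Prdm16. The range of Prdm16 mixes scales: -1.78 is from limma-voom on recovered reads and -1.13 from the pseudocount of 0.1. The alternatives on log2(RPKM + 1) gave -0.32 to -0.25 for Prdm16. Depth limits Zic1, Lhx8 and Irf4, which rest on 0 to 19 reads a library.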

Other observations

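Family relatives of the members were measured beside them. Of 29 relatives 28 were in the tables and 17 were tested, of which 9 rose and 2 fell, with a median log2 fold change of 0.17 on the log2(RPKM + 1) scale, beside 0.10 for all genes. Over all genes 41.6% were called higher and 17.7% lower. After median-of-ratios scaling 4 relatives rose and 3 fell, where 28.5% of all genes were called higher and 28.6% lower. Lhx6, a relative of Lhx8, was at 0.699, 0.990 and 0.690 RPKM in 611 replicates 1, 2 and 3, against 0.476, 0.276 and 0.417 RPKM in DMSO replicates 1, 2 and 3. The groups did not overlap, and the rise was 2.03-fold (limma Benjamini-Hochberg adjusted p = 0.00552). Zic2, a relative of Zic1, was at 1.05, 1.19 and 1.24 RPKM with 611, against 0.781, 0.628 and 0.693 RPKM with DMSO, 1.66-fold higher (limma Benjamini-Hochberg adjusted p = 0.00164). Tbx18, a T-box relative of Tbx15, rose 1.59-fold to 4.98 ± 0.334 RPKM with 611, against 3.13 ± 0.231 with DMSO (limma Benjamini-Hochberg adjusted p = 1.7e-04). Prdm2 and Prdm4, of the PRDM family, rose 1.22-fold and 1.21-fold and lost their calls after scaling. Prdm9, a meiotic histone methyltransferase, was 1.38-fold lower, at 2.22 ± 0.201 RPKM with 611, against 3.06 ± 0.288 with DMSO. Irf7, of the interferon response, was 1.49-fold lower, while Irf9 rose 1.40-fold. Tbx4, Tbx5, Tbx22, Prdm8 and Irf8 were at 0 in all libraries.

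Likeness to Prdm16 over the 6 libraries was highest for Syn1, Rprml and Bspry, with Pearson correlations of 0.995, 0.988 and 0.983 of log2(RPKM + 1), among 2286 genes within 4-fold of its mean. Of these genes 66 reached 0.9. For Ebf2 the most similar of 3666 genes were Kif7, Sncaip and Lrrc71, at 0.990, 0.985 and 0.982, and 182 reached 0.9. All points share the same 6 libraries and the difference between the groups, so these values only describe the order of the libraries.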
